A study of Mus musculus with 2 samples.

Results

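The genes described here, 50 in all, make and handle fatty acids, triglycerides and cholesterol. They were read in sorted luminal cells from mouse mammary glands with and without the miR-200c/141 microRNA cluster. They were taken by gene symbol from an expression table of 16906 genes, and all 50 had a row. The Ctrl library came from miR-200c/141-flox/flox mice, whose cluster is flanked by loxP sites. The CKO library came from K8-CreERT2;miR-200c/141-flox/flox mice, which also carry a tamoxifen-inducible Cre recombinase under the keratin 8 promoter, a promoter active in luminal cells. Mice of both genotypes were C57BL/6, 8 weeks old and injected with tamoxifen. How long after tamoxifen the glands were taken is uncertain, since 1 label says 4 weeks and the other 3 days. About 20000 sorted cells gave each library, the number of mice behind a library is not stated, and each genotype had 1 library. Ctrl mice lacked Cre, so effects of the driver and of the deletion cannot be told apart. With no replicate, every ratio compares these libraries and has no check against the spread between animals.

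Mammary epithelium is built for lipid secretion: in lactation it makes milk triglyceride, wraps it in droplets and releases them as milk fat globules. Cells make fatty acids from acetyl-CoA, desaturate and lengthen them, activate them with coenzyme A and esterify them to glycerol. Cholesterol is made from the same acetyl-CoA through mevalonate, squalene and lanosterol. SREBP transcription factors drive both routes, SREBP-1 more the fatty acid genes and SREBP-2 more the sterol genes, and the proteins encoded by Scap and Insig1 decide whether they reach the nucleus. The 8-week glands were not labelled as pregnant or lactating.

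MicroRNAs of the deleted cluster pair with messenger RNAs through their seed, bases 2 to 8, which is in capitals in these mature sequences from RefSeq (GRCm38.p6). They are shown because a 3' UTR match to either seed marks a gene as a possible target of these microRNAs, although a match is not a proven site. Both are encoded on the minus strand, miR-141-3p at chr6:124717917-124717938 and miR-200c-3p at chr6:124718324-124718346.
mmu-miR-141-3p: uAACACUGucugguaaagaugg
mmu-miR-200c-3p: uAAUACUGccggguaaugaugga

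Target windows of the genes past a log2 ratio of 0.32 that hold a match, and 1 of the 4 windows of Scd2 for comparison with Scd1, are printed 5' to 3' on the strand of the gene, with the 7-base match to the seed in capitals. All lie in the last exon, in the 3' UTR (GENCODE M21, GRCm38). In order, the Scd1 windows are at chr19:44397783-44397809 and chr19:44395855-44395881 on the minus strand, and the Scd2 window at chr19:44303313-44303339 on the plus strand. The Elovl6 windows are at chr3:129636001-129636027, chr3:129636118-129636144 and chr3:129638381-129638407 on the plus strand. The Dgat2 window is at chr7:99154354-99154380 on the minus strand, the Acsl1 window at chr8:46535943-46535969 and the Lss window at chr10:76553202-76553228, both on the plus strand.
Scd1, miR-200c-3p: cctattccggtaCAGTATTcttataaa
Scd1, miR-200c-3p: aaaacatcacatCAGTATTttagaacc
Scd2, miR-200c-3p: cccattctggtaCAGTATTgtaaaacg
Elovl6, miR-141-3p: gcactttagtctCAGTGTTcttcgctt
Elovl6, miR-141-3p: tacaggcaattcCAGTGTTcaccatgg
Elovl6, miR-141-3p: gcgaaatcacagCAGTGTTggaattct
Dgat2, miR-200c-3p: gaagggaagagtCAGTATTttaagctc
Acsl1, miR-141-3p: aatgtttgctttCAGTGTTggctattt
Lss, miR-141-3p: tggggatagggtCAGTGTTggtgtctt

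In the CKO library the terminal triglyceride enzyme Dgat2, the droplet coat gene Plin2 and most genes of fatty acid uptake stood higher than in Ctrl, while the desaturase Scd1 and the elongase Elovl6 stood lower. The core genes of fatty acid synthesis and most sterol genes lay close to equal in both libraries. Levels are in FPKM (fragments counted per kilobase of transcript and scaled to the library's total), and a gene was counted as measured at a mean of at least 1 FPKM. All 50 genes were measured, although the carrier gene Fabp3 passed only through its CKO value. Ratios are log2 of CKO over Ctrl after adding 0.5 FPKM. The bracketed 95% interval is an exact binomial (Clopper-Pearson) interval of the ratio of estimated reads, without the added value, and it covers counting error only.

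At 1.5-fold or more, 3 of the 50 genes were higher in CKO (Fabp3, Olah and Dgat2), against 2.47% of all 11667 measured genes, and 2 were lower (Elovl6 and Scd1), against 3.15%. With so few genes past this limit, the counts are not read as set apart from the table. With a smaller limit of 0.32 on the log2 scale (a ratio of 5 to 4), 13 genes (26%) were higher, against 7.72% of all measured genes, and 6 (12%) were lower, against 12.1%. The share of lower genes is thus close to that of the whole table, while the share of higher genes is above it. Under scaling with a trimmed mean of M-values, the background past 0.32 became 9.64% higher and 9.84% lower. Of the 13 higher genes 4, Fabp4, Cd36, Lpl and Lipe, are also markers of fat cells, and 9 of the other 46 were higher. The median log2 ratio was 0.02 over the 50 genes and -0.03 over all measured genes.

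Just inside the 1.5-fold limit, at 0.58 on the log2 scale, lay Dgat2 at 0.83 and Scd1 at -0.63. Just outside it lay the sterol desaturase Sc5d at 0.56 and the acyl-CoA synthetase Acsl1 at -0.57. Insig1 at 0.33 and Mvk at -0.33 were the genes nearest to the inside of the limit of 0.32, and Hsd17b7 at 0.24 and Acaca at -0.26 the nearest outside.

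**Figure D1:**
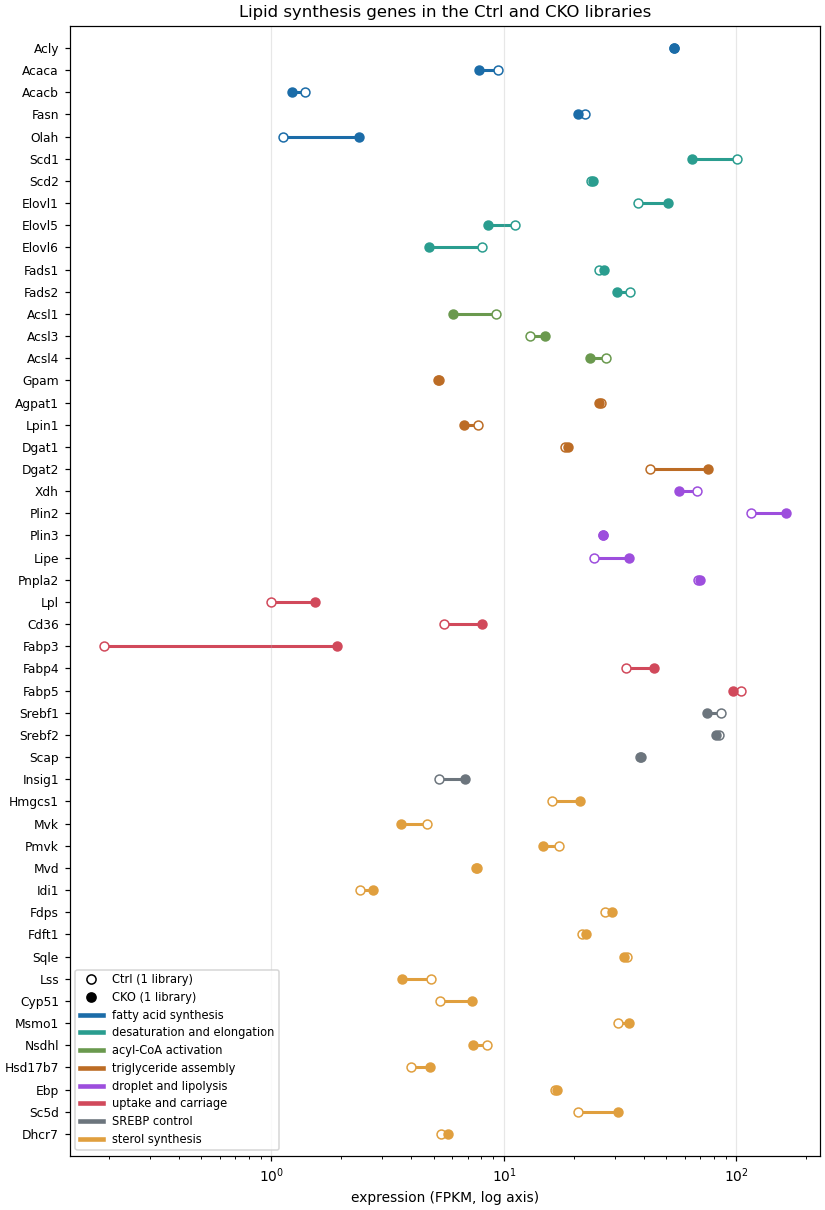
Expression of the 50 genes in FPKM on a log axis, grouped by role, with an open point for the Ctrl library and a filled point for the CKO library (1 library each). Plin2 is highest in both libraries, Fabp3 has the widest gap, and the points of most sterol genes nearly touch.

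Fatty acid synthesis proper differed little. Acly, which splits citrate into cytosolic acetyl-CoA, stood at 54.0 FPKM in Ctrl and 53.8 in CKO, a log2 ratio of -0.01 (-0.08 to 0.07). Fasn, the fatty acid synthase, was at 22.3 and 20.9 FPKM, a ratio of -0.10 (-0.18 to -0.02). Both sit well inside the smaller limit. Acaca, the cytosolic acetyl-CoA carboxylase that commits carbon to fatty acids, fell short of that limit at 9.41 and 7.78 FPKM (-0.26, -0.41 to -0.14). Acacb, its mitochondrial relative that restrains fatty acid oxidation, was low at 1.40 and 1.22 FPKM (-0.14, -0.56 to 0.17). The outlying gene of this step was Olah, whose product is the thioesterase that ends chains early to give the medium-chain fatty acids of milk. Olah stood at 1.12 FPKM in Ctrl and 2.38 in CKO, about 21 and 41 estimated reads, so its log2 ratio of 0.83 has a wide interval (0.30 to 1.93).

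Desaturation and elongation held both of the genes lower by 1.5-fold. Scd1, the delta-9 desaturase that makes oleate from stearate, stood at 100.3 FPKM in Ctrl and 64.5 in CKO, a log2 ratio of -0.63 (-0.70 to -0.58). With about 6071 and 3577 estimated reads it had the narrowest interval of the genes past 1.5-fold. Its neighbour on chromosome 19, Scd2, encodes a desaturase with the same activity and was at 23.7 and 24.2 FPKM (0.03, -0.08 to 0.13). Scd1 thus stood 4.23-fold above Scd2 in Ctrl and 2.67-fold above it in CKO. The submitters' notes name RSEM among the tools. How certain its division of reads common to these related genes is cannot be read from the deposited values, so the split between them is uncertain.

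Elovl6, the elongase that takes palmitate to stearate, stood at 8.03 FPKM in Ctrl and 4.76 in CKO, a log2 ratio of -0.70 (-0.95 to -0.56). It supplies the substrate of Scd1, so the members lower by 1.5-fold act in consecutive steps. Elovl5, which lengthens polyunsaturated fatty acids, was at 11.1 and 8.53 FPKM (-0.37, -0.62 to -0.16). Elovl1, which makes very long saturated chains for sphingolipids, went the other way, at 37.6 and 50.7 FPKM (0.43, 0.30 to 0.56). The desaturases of polyunsaturated fatty acids were within 0.32 of equal, Fads1 at 25.7 and 26.8 FPKM and Fads2 at 34.9 and 30.7. Reads of all 7 genes of this step summed to a log2 ratio of -0.31 (-0.35 to -0.27).

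Acyl-CoA synthetases, which activate fatty acids for every later use, were mixed. Acsl1, an isoform of fat-storing and fat-burning tissues, stood at 9.23 FPKM in Ctrl and 6.05 in CKO (-0.57, -0.84 to -0.38). Acsl3, which sits on forming lipid droplets, was at 12.9 and 15.0 FPKM (0.20, 0.05 to 0.37). Acsl4, which prefers arachidonate, was at 27.6 and 23.5 FPKM (-0.22, -0.33 to -0.12).

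Triglyceride assembly was nearly equal in both libraries up to its last step. Gpam, which adds the first acyl chain to glycerol phosphate, stood at 5.25 FPKM in Ctrl and 5.22 in CKO. Agpat1, which adds the second, was at 26.2 and 25.7 FPKM. Lpin1, the phosphatidate phosphatase, was at 7.76 and 6.76 FPKM (-0.19, -0.39 to -0.01).

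The last acyl chain is added by 2 unrelated enzymes, and they differed. Dgat1 stood at 18.4 FPKM in Ctrl and 18.9 in CKO (0.04, -0.16 to 0.24), whereas Dgat2 was at 42.4 and 75.7 FPKM (0.83, 0.73 to 0.94). Dgat2 thus stood 2.31-fold above Dgat1 in Ctrl and 3.99-fold above it in CKO. Dgat2 also set the sum of the step: reads of the 5 assembly genes gave a log2 ratio of 0.35 (0.28 to 0.41) with it and -0.05 without it.

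Of the 5 droplet and lipolysis genes, 2 were higher past 0.32, 1 perilipin and 1 lipase, and none was lower. Plin2, the perilipin that coats milk lipid droplets, had the highest level of the 50 genes in both libraries, at 116 FPKM in Ctrl and 164 in CKO (0.50, 0.43 to 0.58). Plin3, the general perilipin of small droplets, was at 26.6 and 26.7 FPKM. Xdh, xanthine oxidoreductase, which helps enclose secreted fat globules, was at 67.6 and 56.5 FPKM (-0.26, -0.33 to -0.19). Of the lipases, Lipe, the hormone-sensitive lipase that cleaves diglycerides, was at 24.3 and 34.6 FPKM (0.50, 0.38 to 0.63). Pnpla2, the adipose triglyceride lipase that acts before it, was at 68.1 and 70.0 FPKM (0.04, -0.05 to 0.13).

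Uptake and carriage had 4 of 5 genes higher by at least 0.32 on the log2 scale. Cd36, a fatty acid receptor of the cell surface, stood at 5.52 FPKM in Ctrl and 8.04 in CKO (0.50, 0.27 to 0.82). Lpl, the lipase that frees fatty acids from circulating lipoproteins, was low at 1 and 1.54 FPKM (0.44, 0.07 to 1.15). Fabp4, the fatty acid binding protein of fat and vessel cells, was at 33.4 and 44.2 FPKM (0.40, 0.17 to 0.64). Fabp3, the binding protein of heart and lactating mammary cells, was at 0.19 and 1.91 FPKM. These were about 2 and 15 estimated reads, so its log2 ratio of 1.80 has an interval from 0.93 to 6.21.

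Fabp5, the epithelial binding protein, was the abundant one, at 105 FPKM in Ctrl and 96.9 in CKO (-0.11, -0.23 to 0.01). Because Fabp5 carried most reads of this group, the 5 genes summed to a log2 ratio of 0.10 with it, with an interval that reached 0, and 0.51 without it.

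Several of these genes are shared with other cells of the gland, so levels of those cells' markers are given beside them. In bulk RNA, fewer cells of a type and less RNA per cell cannot be told apart. Of 13 adipocyte markers, Adipoq, Retn and Lep had no row in the table, and the droplet genes Plin1 and Cidec and the adipokine gene Cfd were at most 0.36 FPKM in either library. Plin1 stood at 0.17 FPKM in Ctrl and 0.05 in CKO. Pparg, the master regulator of fat cells, was at 1.43 and 0.59 FPKM. Of the 6 measured markers of the list 5 were higher past 0.32 and Pparg was lower. Those 5 were Adig, an adipocyte gene at 6.02 and 8.90 FPKM (0.53, 0.02 to 1.13), and the lipid genes Fabp4, Cd36, Lpl and Lipe, which are also among the 50. The 10 adipocyte markers with a row, measured or not, summed to 72.9 FPKM in Ctrl and 98.3 in CKO, most of it from Fabp4 and Lipe.

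Of 9 measured endothelial markers 1 was higher past 0.32, Pecam1, and 1 lower, Flt1, with a median of 0.03. Of 10 measured basal myoepithelial markers 7 were higher at 1.5-fold, among them Krt14 at 44.5 and 90.8 FPKM, and 1 was lower, the basal transcription factor gene Trp63 at 2.96 and 1.05. Of 9 measured alveolar and milk genes 4 were lower at 1.5-fold and 1 higher, with a median of -0.33. Of 7 measured myeloid markers 2 were higher at 1.5-fold and 1 lower, and their reads summed to a log2 ratio of 0.65 (0.50 to 0.81). That sum rested largely on Cd74, with 287 of 574 estimated reads in Ctrl and 509 of 827 in CKO. Of the 7 myeloid markers 5 lay above 0 and 2, C1qb and C1qc, below. Cd74 was at 18.0 and 34.8 FPKM and Lyz2 at 4.42 and 6.57. Ptprc, Adgre1 and Itgam, also on this list, were at most 0.52 FPKM in either library. Macrophages also express Cd36, Lpl, Plin2 and Apoe. Of 4 measured fibroblast markers none passed 1.5-fold, with a median of -0.06. The part of any of these cells in the lipid gene ratios was not tested.

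All 8 luminal markers were measured, with a median log2 ratio of 0.14, and their reads summed to a log2 ratio of 0.34. The sum rested largely on Krt18, with 115619 of 324464 estimated reads in Ctrl and 166582 of 374806 in CKO. Of the 8 markers 7 lay above 0 and 1 below. The lower one was Cldn4, at 2180 FPKM in Ctrl and 2054 in CKO (-0.09). Krt18 was at 6607 and 10398 FPKM (0.65, past 1.5-fold), Krt8 at 3871 and 4476, and Epcam at 1189.5 and 1233.

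**Figure D2:**
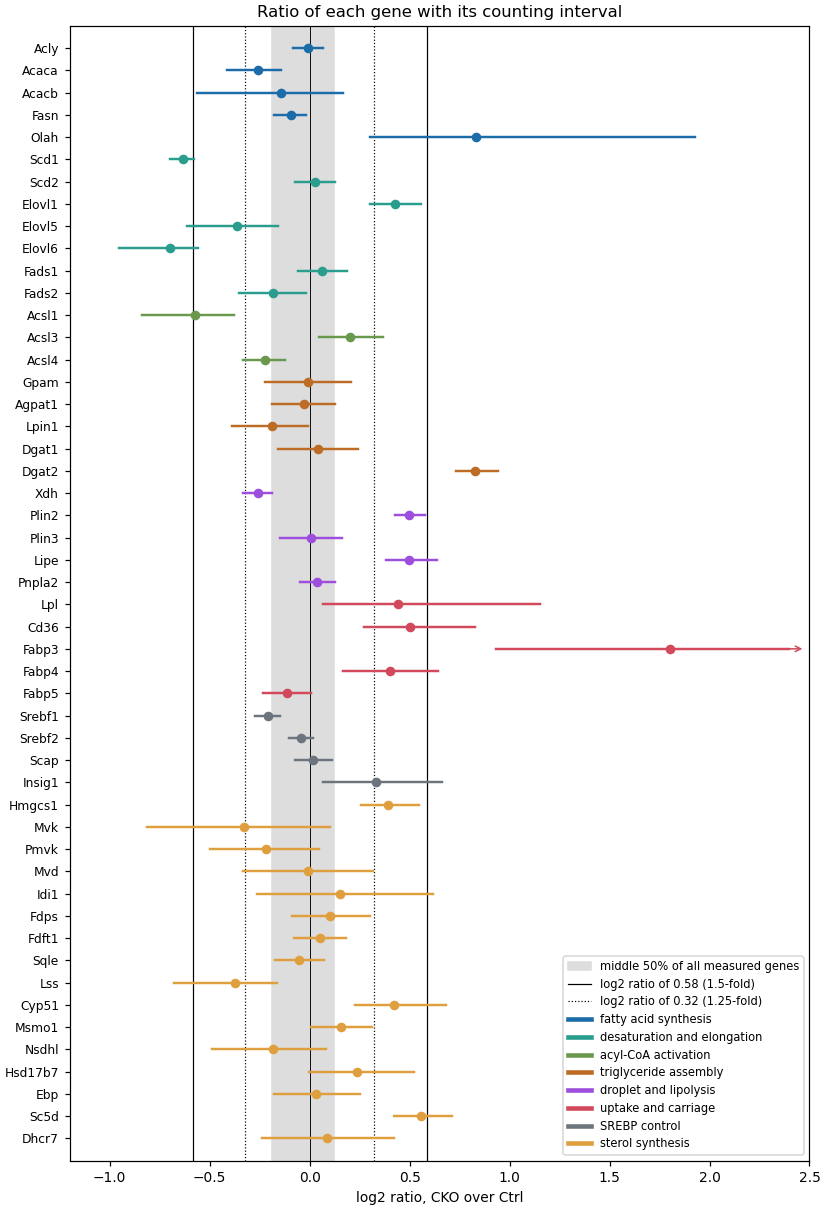
Log2 ratio of CKO over Ctrl for each of the 50 genes by role, with the 95% counting interval as a line. The grey band is the middle 50% of all measured genes (-0.19 to 0.12), and the lines at each side of 0 mark 0.32 (dotted) and 1.5-fold (solid). The interval of Fabp3 runs past the right edge, to 6.21, and the sterol genes all lie inside the 1.5-fold lines.

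Of the 4 genes of SREBP control, Srebf1, Srebf2 and Scap were abundant and within 0.32 of equal, and Insig1 was lower in level and higher in CKO. Srebf1, which encodes SREBP-1, stood at 86.1 FPKM in Ctrl and 74.5 in CKO (-0.21, -0.27 to -0.15). Srebf2, which encodes SREBP-2, was at 83.9 and 81.4 FPKM (-0.04, -0.10 to 0.02). Srebf1 stood at 1.03 times Srebf2 in Ctrl and 0.915 times in CKO. Scap, whose product escorts SREBPs out of the endoplasmic reticulum, was at 38.3 and 38.9 FPKM (0.02, -0.07 to 0.11). Insig1, which holds the escort back and is itself an SREBP target, was at 5.28 and 6.78 FPKM (0.33, 0.07 to 0.66).

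Sterol synthesis held no gene past 1.5-fold in either direction, while 3 of its 16 genes were higher and 2 lower past a log2 ratio of 0.32. Among the early steps, Hmgcs1, which makes HMG-CoA, stood at 16.1 FPKM in Ctrl and 21.2 in CKO (0.39, 0.26 to 0.55). Mvk, mevalonate kinase, was at 4.66 and 3.61 FPKM (-0.33, -0.81 to 0.10), an interval that includes equal levels. Pmvk, the next kinase, was at 17.2 and 14.8 FPKM (-0.22, -0.50 to 0.05). The remaining genes that lead to squalene, Mvd, Idi1, Fdps and Fdft1, had ratios from -0.01 to 0.15, and the interval of each included 0.

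Squalene is turned into the first sterol by Sqle and Lss. Sqle, the squalene epoxidase, stood at 33.9 FPKM in Ctrl and 32.7 in CKO (-0.05, -0.17 to 0.07). Lss, lanosterol synthase, was at 4.87 and 3.64 FPKM (-0.38, -0.68 to -0.16). After it comes Cyp51, the lanosterol demethylase, at 5.31 and 7.28 FPKM (0.42, 0.23 to 0.68). Lss and Cyp51, which share lanosterol as product and substrate, thus lay on opposite sides of 0.

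Late steps trim lanosterol to cholesterol. Sc5d, which adds the C5 double bond, had the highest ratio of the sterol genes, at 20.8 FPKM in Ctrl and 30.8 in CKO (0.56, 0.42 to 0.71). Msmo1, the C4-methyl oxidase, was at 30.8 and 34.4 FPKM (0.16, 0.01 to 0.31). Nsdhl and Hsd17b7, which complete the C4 demethylation, had ratios of -0.19 and 0.24. Ebp, the sterol isomerase, and Dhcr7, the final reductase, had ratios of 0.03 and 0.09. The intervals of all 4 included 0.

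The fatty acid branch was taken as the 20 genes of synthesis, desaturation and elongation, activation and triglyceride assembly, and the sterol branch as the 16 sterol genes. Within each library the fatty acid branch was the higher, with a median of 20.4 FPKM against 12.3 in Ctrl and 19.9 against 11.2 in CKO. In the ratio of CKO over Ctrl, 7 fatty acid genes lay above 0 and 13 below, and 10 sterol genes above and 6 below. The median log2 ratio was -0.06 in the fatty acid branch and 0.07 in the sterol branch, a difference of 0.13. Summed reads gave -0.12 (-0.15 to -0.10) for the fatty acid branch, and 0.01 without its most abundant gene, Scd1. For the sterol branch they gave 0.14 (0.09 to 0.18), and 0.17 without Sqle. The sum of the fatty acid branch thus depended on Scd1. Dgat2, at about 1192 estimated reads in Ctrl and 1949 in CKO, pulled it the other way, and the sum without Dgat2 was not computed.

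Ratios over the whole table moved with transcript length. The median log2 ratio of measured genes went from 0.11 in the shortest of 10 equal classes of length to -0.20 in the longest. The branches differ in length, with a median of 4140.5 bases for the fatty acid genes and 2485 for the sterol genes. Centred on genes of like length, the difference between the branch medians was 0.03, and the fatty acid median was 0.03. Elovl6 then fell just short of 1.5-fold at -0.58 and Scd1 at -0.51, so no gene was lower by 1.5-fold, while Dgat2 lay at 0.81 and Sc5d at 0.56. The part of length in these ratios was not tested.

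**Figure D3:**
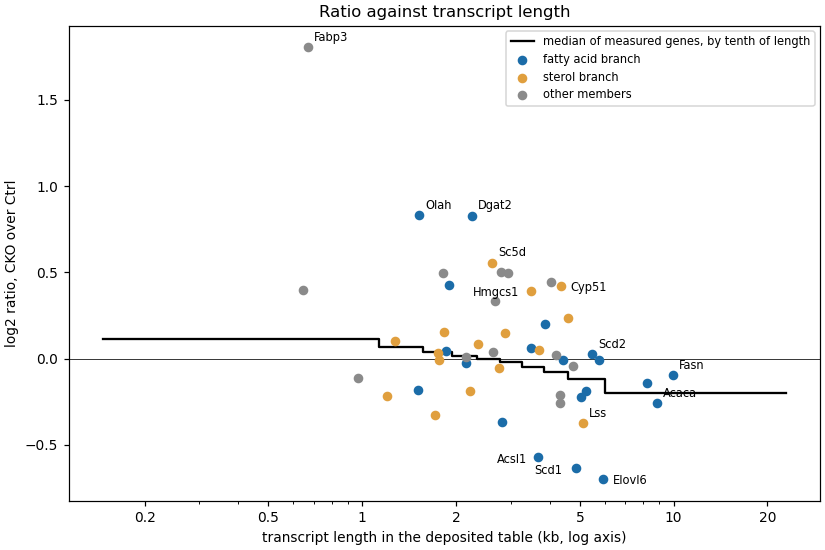
Log2 ratio of CKO over Ctrl against the transcript length in the deposited table (kilobases, log axis) for the 50 genes, coloured by branch. The stepped line is the median of all measured genes in each of 10 classes of length, which goes from 0.11 to -0.20, and Scd1, Elovl6 and Acsl1 lie below it while Dgat2, Olah and Sc5d lie above.

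The deposited p-value gives a second view of the same libraries, since the authors' test used the reads. This view is not independent of the FPKM, because the totals behind the estimated reads were fitted to the same p-values. Closeness of the measures is thus partly built in. Reads implied by it were compared with the FPKM ratio for the 49 genes with at least 50 reads. For 2 of them, Elovl5 and Lss, the log2 values differed by more than 0.1, against 6.76% of genes over the table. The FPKM ratio of Elovl5, without an added value, was -0.38 and the implied ratio -0.21, with a p-value of 0.062 in the authors' deposited table. For Lss they were -0.42 and -0.18, with a p-value of 0.136 in the authors' deposited table. The differences of both genes are thus smaller by the second measure. The authors' deposited table calls none of the 50 genes higher or lower. Its calls need a false discovery rate of at most 0.001 and at least a 2-fold ratio. Some genes, Scd1 and Dgat2 among them, met the first limit and not the second. Fabp3 and Olah met the second and not the first. The authors' test compares 1 library with the other and holds no spread between animals.

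**Figure D4:**
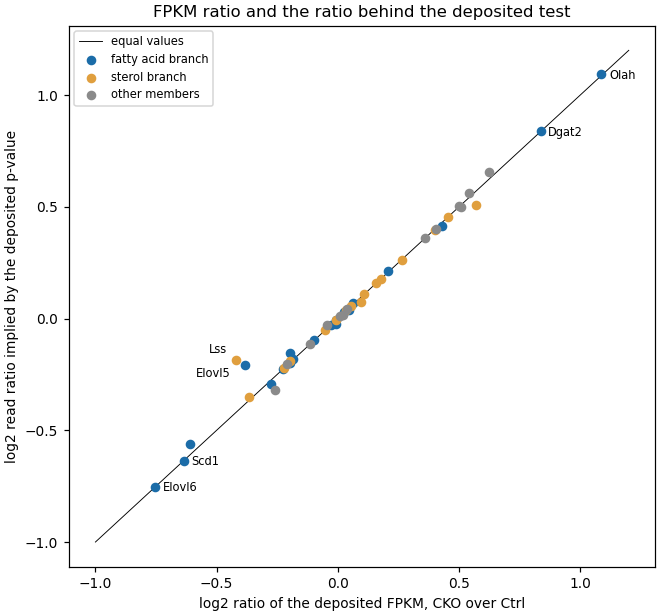
Log2 ratio of the deposited FPKM (x axis) against the log2 read ratio implied by the deposited p-value (y axis) for the 49 genes with at least 50 reads, coloured by branch. The points lie near the line of equal values except Elovl5 and Lss, which lie above it.

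The rest of both pathways, genes not among the 50, gave few differences. Of 14 other measured sterol genes none passed 1.5-fold. Of the paired sterol reductases, Tm7sf2 was at 7.73 FPKM in the Ctrl library and 5.25 in CKO (-0.52, -0.96 to -0.17) and Lbr at 8.20 and 10.2 (0.30, 0.11 to 0.52). Npc1, which exports cholesterol from lysosomes, was at 22.8 and 18.9 FPKM (-0.26, -0.38 to -0.15).

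Of 23 other measured fatty acid and triglyceride genes none was higher at 1.5-fold and 1 was lower. That gene was Btn1a1, butyrophilin of the milk fat globule membrane, at 18.5 FPKM in Ctrl and 8.33 in CKO (-1.10, -1.34 to -0.96). It acts in globule secretion with Xdh and Plin2, so the genes of that step lay on both sides of 0. Mgll, the lipase after Lipe, was at 11.8 and 16.5 FPKM (0.47, 0.32 to 0.65). Cidea, a droplet protein of lactating mammary cells, was at 13.6 and 17.3 FPKM (0.33, 0.07 to 0.63). The lipases Lipe and Mgll, which act in turn, thus both lay above 0. Fads3 was at 13.2 and 9.76 FPKM (-0.41, -0.63 to -0.24), and Acss2, which makes acetyl-CoA from acetate, at 5.42 and 6.43 (0.23, -0.05 to 0.54).

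Fatty acid oxidation had 18 measured genes, none past 1.5-fold, with a median of 0.08. Acaa2, the mitochondrial thiolase, had the highest ratio, with 33.5 FPKM in Ctrl and 49.2 in CKO (0.55, 0.40 to 0.71). Hadha, of the trifunctional protein, was at 43.6 and 51.8 FPKM (0.25, 0.16 to 0.34), and Cpt1a, the gate to mitochondria, at 39.0 and 45.0 (0.20, 0.12 to 0.29). Oxidation is the opposite arm of Acacb, which was low in both libraries.

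Among 12 measured lipid transcription factor and sterol efflux genes, 1 was higher at 1.5-fold, Apoe, and 1 lower, Pparg. Apoe, the lipoprotein component, stood at 97.8 FPKM in Ctrl and 155 in CKO (0.66, 0.57 to 0.76). The sterol exporters were lower, Abca1 at 14.0 and 9.64 FPKM (-0.51, -0.64 to -0.43) and Abcg1 at 11.8 and 9.17 (-0.35, -0.52 to -0.22). Cebpb, an activator of fat genes, was at 241 and 284 FPKM (0.24, 0.18 to 0.29). Past 0.32 on the log2 scale 5 genes of this list were lower: Pparg, Abca1, Abcg1, the ubiquitin ligase gene Mylip and the sterol receptor gene Nr1h3, the last pair named after their values were seen. Abca1, Abcg1 and Mylip are textbook targets of these receptors, as Srebf1, Scd1 and Apoe are, and Apoe lay on the other side of 0. The part of the receptors in these ratios was not tested.

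Seed matches were counted in the longest annotated 3' UTR, as CAGTGTT for miR-141-3p and CAGTATT for miR-200c-3p on the strand of the transcript. They were in 17 of the 50 genes (34%), against 30.1% of 11153 measured genes with such a UTR. The fatty acid branch had a match in 10 of 20 genes and the sterol branch in 5 of 16. The median log2 ratio was -0.04 where a match was present, with 7 above and 10 below 0, and 0.04 in the 33 genes without. Of the 17, 1 was higher past 0.32 (Dgat2) and 4 were lower (Scd1, Elovl6, Acsl1 and Lss). Of the 33, 12 were higher and 2 lower. The shares of all measured genes past 0.32 with and without a match were not counted. This split is therefore not read as a trait of these genes. Genes with a match also had longer 3' UTRs, at a median of 2256 against 847 bases, and over all measured genes the medians were -0.08 with a match and -0.01 without.

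Thus the genes with windows printed above were both higher and lower without the cluster. Dgat2, with 1 match in 888 bases, was the higher one, and Elovl6, with 3 matches in 5005 bases, had the lowest ratio of the 50. The matches in the first Scd1 window and in the Scd2 window begin at bases 122 and 125 of their annotated 3' UTRs, and these windows share 20 of 27 bases. Scd1 holds 2 matches and Scd2 holds 4, and Scd1 was lower while Scd2 was nearly equal. A match is a string of letters and not a proven site.

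**Figure D5:**
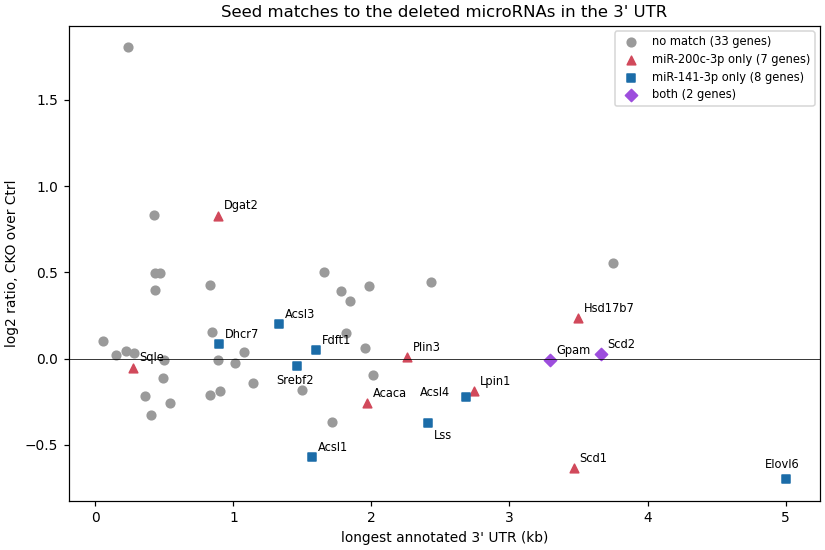
Log2 ratio of CKO over Ctrl against the length of the longest annotated 3' UTR (kilobases) for the 50 genes, with the 17 genes that hold a seed match named and marked by microRNA. Dgat2 is the named gene farthest above 0, at 0.83, and Elovl6 the farthest below, at -0.70.

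Promoter windows, from 250 bases before to 50 after the start, were matched in RefSeq (GRCm38.p6) for 38 of the 50 genes. Scd1, Scd2, Dgat1, Dgat2, Sqle, Fabp4, Fabp5, Fads1, Fdps, Fdft1, Lpl and Xdh were not matched. Windows were searched on both strands for the SREBP site TCACNCCAC, the E-box CACGTG, the CCAAT box CCAAT and the GC box GGGCGG. The SREBP site was in Hmgcs1 and, at a later start of that gene, in Acsl1, 2 of 38 genes against 1.24% of 9339 measured genes, and these genes lay on opposite sides of 0. The E-box was in 8 genes, Dhcr7, Elovl5, Hsd17b7, Insig1, Lipe, Plin2, Sc5d and Scap, against 11.9% of measured genes. The CCAAT box was in 28 genes, against 42.9%, with all 13 matched sterol genes and 9 of 15 matched fatty acid genes. The GC box was in 29 genes, against 70.0%. The CCAAT box binds NF-Y, a known partner of SREBPs.

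Promoters of 3 higher genes, chosen because each holds an SREBP site or an E-box, are shown 5' to 3' on the strand of the gene, up to the first start in RefSeq or GENCODE, with the SREBP site, E-box and CCAAT boxes of either strand in capitals. They are Hmgcs1 at chr13:119690101-119690350 (plus strand), Sc5d at chr9:42264301-42264550 (minus strand) and Insig1 at chr5:28071162-28071362 (plus strand).
Hmgcs1: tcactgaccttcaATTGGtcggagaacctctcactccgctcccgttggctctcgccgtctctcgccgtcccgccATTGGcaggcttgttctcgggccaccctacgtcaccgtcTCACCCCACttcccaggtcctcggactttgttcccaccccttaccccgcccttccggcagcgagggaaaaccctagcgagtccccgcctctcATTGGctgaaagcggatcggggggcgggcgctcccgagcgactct
Sc5d: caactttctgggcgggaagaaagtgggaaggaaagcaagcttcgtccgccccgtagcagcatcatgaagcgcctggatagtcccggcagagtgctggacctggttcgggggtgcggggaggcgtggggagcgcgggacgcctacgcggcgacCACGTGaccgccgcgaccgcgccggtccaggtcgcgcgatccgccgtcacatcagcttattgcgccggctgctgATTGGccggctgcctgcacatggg
Insig1: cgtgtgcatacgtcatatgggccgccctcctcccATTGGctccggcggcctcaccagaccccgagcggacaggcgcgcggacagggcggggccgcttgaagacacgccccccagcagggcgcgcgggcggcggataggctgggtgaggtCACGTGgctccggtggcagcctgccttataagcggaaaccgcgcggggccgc

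Hmgcs1 carries the SREBP site 137 bases before the start with a CCAAT box on each side, on the other strand. In Sc5d the E-box lies 98 bases and the CCAAT box 24 bases before the start, and in Insig1 the E-box lies 101 bases before it, all counted from the RefSeq start. The Insig1 sequence is cut earlier, at the first GENCODE start. Their ratios were 0.39, 0.56 and 0.33, the same side as Cyp51, whose window holds a CCAAT box and a GC box and neither of the other motifs. Mvk and Lss, on the other side of 0, have CCAAT boxes too. Of the other E-box genes, Plin2 and Lipe had ratios of 0.50, Hsd17b7 0.24, Dhcr7 0.09, Scap 0.02 and Elovl5 -0.37.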

How the data were processed

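Per the submitters' processing notes, reads were processed with HISAT, Bowtie2 and RSEM on mm10, and the annotation is not given in the sources used here. The deposited table has no unit in its header. Its expression columns are the authors' FPKM: their products with length in kilobases sum to 999609 (Ctrl) and 999909 (CKO). Values carry 2 decimals, and genes without reads are listed at 0.01. The authors' deposited log2 fold change is the log2 ratio of these columns. The deposited p-value comes from the authors' test of 1 library against the other.

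The design's fallback for a table without counts was used: log2 ratios of FPKM plus 0.5, with no test across samples. The deposited p-values of genes at the floor gave the share of CKO in the reads (0.478, whole reads within 0.01 for 224 of 225 genes). A fit to 14417 genes put the totals near 12500000 reads (Ctrl) and 11400000 (CKO), and reads per gene were estimated from these totals. The scripts were checked on simulated data (Python 3.11.15, numpy 2.4.6, scipy 1.17.1).

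The 50 genes, the other lists and the rules were chosen with earlier results of these data known. All 50 are accounted for. From the other lists, the named genes were Acss2, those past 1.5-fold, and up to 3 more per list by the interval bound farthest from 0; some genes of these lists are not reported here. The deleted microRNAs' own RNAs were not analysed here. Gpat3 and Agpat6 were matched by their other symbols.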

Additional observations from a re-analysis of the deposited data

How the results depend on the processing

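Of 89 values recomputed under other settings, 83 stayed within a set band. Settings included pseudocount, minimum level, scaling, division by length, reads implied by the deposited p-value and the fat cell markers left out. The band was a counting interval (for medians, that of a typical gene) or, for counts of genes, 1.5 times. A typical gene's interval is wide beside these medians, so staying within it does not show that a median is stable. The difference between the branch medians stayed within its band while going from 0.13 to 0.03 when centred on genes of like length. Scaling shifts all genes alike and cannot change that difference. The summed log2 ratio of the fatty acid branch went from -0.12 to -0.094 with the trimmed mean of M-values and to 0.014 without Scd1. The sum of triglyceride assembly went from 0.35 to -0.050 without Dgat2, and that of uptake and carriage from 0.10 to 0.51 without Fabp5. With a minimum mean of 5 FPKM, 1 gene in place of 3 was higher at 1.5-fold, because fewer genes are tested. Centred on genes of like length, a setting chosen after seeing the data, 0 genes in place of 2 were lower at 1.5-fold, and the median of the fatty acid branch turned from -0.06 to 0.03. The trimmed mean of M-values shifted all ratios by 0.04, so directions of genes within that distance of 0 are not settled.

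No paired analysis was possible because each genotype has 1 library. Depth limits Fabp3 (2 and 15 reads), Olah (21 and 41 reads) and Lpl (51 and 71 reads) most. The leave-one-out check could not be made for the same reason.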
